A study of Mus musculus with 18 samples.

Results

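The genes described here encode the machinery that makes ribosomes in the nucleolus. They were chosen by name and known role, as RNA polymerase I subunits and factors, the core proteins of the box C/D and box H/ACA small nucleolar ribonucleoproteins, processing and assembly factors of the small and the large ribosomal subunit, nucleolar scaffold proteins, and Myc. Of 51 genes named, 50 were measured among the 24047 genes of the count table, and Noc2l was not analysed here. RNA-seq was performed on intact crypts isolated from mouse colon, in 18 libraries that fall into 6 groups of 3.

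All mice were C57BL/6. The WT and the Ern2-/- mice were each studied germ-free (GF), 14 days after germ-free mice received 1 gavage of cecal homogenate from conventional WT donors (COLONIZED), and with the conventional flora of a specific pathogen-free facility (CONV). Ern2 encodes IRE1β, the stress sensor of the endoplasmic reticulum that is restricted to mucosal epithelium, and the labels name no Cre driver or tissue restriction for its deletion. No ages are given in the labels.

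Ribosome synthesis starts in the nucleolus, where RNA polymerase I transcribes the ribosomal DNA into a long precursor. Small nucleolar RNAs guide fibrillarin to methylate that precursor and dyskerin to pseudouridylate it, and large assemblies then fold and cut it into the RNAs of the small and the large subunit. MYC is the best known activator of these genes, and in the colon their expression is highest in the dividing cells of the lower crypt.

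Promoter sequences were read for the members from RefSeq (GRCm38.p6, the build of the count table), covering 250 bases before to 50 bases after the annotated start. A promoter entry matched 45 of the 50 measured members, and Fbl, Npm1, Bop1, Rrp12 and Myc had none. CACGTG, the E-box that MYC and its partner MAX recognise, was found in 11 of the 45 windows (24.4%) and in 8.09% of the windows of all 27025 genes. Restricting the search to the 250 bases before the start gave 4 of 45 (8.89%) against 6.86% of all genes, and restricting it to the 50 bases after the start gave 7 of 45 (15.6%) against 1.28%. These matches describe letters in a window, not occupancy by a factor.

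The 11 genes with a CACGTG are shown because their matches lie mostly within the first bases after the RefSeq start. Each line gives the E-box in capitals with up to 10 bases on each side, 5′ to 3′ on the strand of the gene.
Imp4 (chr1:34439698-34439723, plus strand): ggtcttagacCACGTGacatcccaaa
Ltv1 (chr10:13193094-13193119, minus strand): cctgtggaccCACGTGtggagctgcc
Mybbp1a (chr11:72441357-72441376, plus strand): cttctgagccCACGTGtttg
Nle1 (chr11:82908357-82908382, minus strand): ggttctcctcCACGTGgggacgcagg
Nop2 (chr6:125131813-125131838, plus strand): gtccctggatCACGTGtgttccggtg
Pes1 (chr11:3963967-3963992, plus strand): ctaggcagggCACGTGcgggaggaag
Rrn3 (chr16:13780474-13780499, plus strand): gcgccaaggtCACGTGcacacgcctc
Rrn3 (chr16:13780641-13780666, plus strand): acgctctgctCACGTGggccgcgtcc
Tsr1 (chr11:74898094-74898119, plus strand): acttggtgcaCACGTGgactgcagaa
Utp18 (chr11:93885771-93885796, minus strand): gagcgccggtCACGTGgcttgcggcg
Utp20 (chr10:88826765-88826787, minus strand): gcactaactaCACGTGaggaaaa
Wdr43 (chr17:71616222-71616247, plus strand): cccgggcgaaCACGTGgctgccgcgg

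In Pes1 the E-box began at base 3 of the transcript, and in Wdr43, Nle1, Tsr1, Ltv1, Utp20 and Mybbp1a it began between base 18 and base 41. These positions count from the RefSeq start. The GENCODE gene start lay further upstream for Wdr43 (chr17:71615895), Nle1, Tsr1 and Ltv1 (chr10:13193168), and further downstream for Utp20 and Mybbp1a. Rrn3 carried it at 2 places, both before the start.

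Other motifs searched on both strands, each separately so that matches may overlap, were CACGCG, another sequence that MYC and MAX bind, and CCGGAAGT, the core of ETS family sites. CACGCG was found in 16 of 45 windows (35.6%) and in 10.5% of all genes, and CCGGAAGT in 10 of 45 (22.2%) and in 4.31% of all genes. The 250 bases before the start are printed for Nolc1, Nhp2 and Nop56, which were called higher in both WT comparisons with germ-free crypts below. Capitals mark CGCGTG, the reverse complement of CACGCG, in Nolc1 and CCGGAAGT in Nhp2, and Nop56 held none of the 3 motifs in these bases.
Nolc1 (chr19:46075597-46075846, plus strand): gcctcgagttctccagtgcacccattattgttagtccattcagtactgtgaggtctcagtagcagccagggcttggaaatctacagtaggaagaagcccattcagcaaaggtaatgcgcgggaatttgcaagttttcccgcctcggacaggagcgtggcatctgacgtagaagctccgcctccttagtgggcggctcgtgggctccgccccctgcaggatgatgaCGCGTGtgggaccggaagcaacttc
Nhp2 (chr11:51619523-51619772, plus strand): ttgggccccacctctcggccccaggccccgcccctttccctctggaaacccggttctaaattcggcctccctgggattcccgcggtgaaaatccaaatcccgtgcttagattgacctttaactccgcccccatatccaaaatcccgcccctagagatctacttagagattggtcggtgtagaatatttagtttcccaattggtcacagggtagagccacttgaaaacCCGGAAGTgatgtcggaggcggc
Nop56 (chr2:130274162-130274411, plus strand): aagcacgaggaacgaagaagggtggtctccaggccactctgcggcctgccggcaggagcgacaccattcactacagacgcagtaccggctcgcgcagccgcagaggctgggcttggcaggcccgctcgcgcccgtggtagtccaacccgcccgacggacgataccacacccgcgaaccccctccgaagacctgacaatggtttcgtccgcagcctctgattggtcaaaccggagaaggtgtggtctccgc

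The libraries held 5865619 to 23154481 counts, and the shallowest 3 were CONV-Ern2-/- replicates 3 and 2 and CONV-WT replicate 3, at 5865619, 7084267 and 8198204. Members took 0.203% to 0.387% of the counts of a library, and every member had counts in every library. Ern2 counts did not follow the genotype label in every library. The libraries labelled Ern2-/- had 2877, 386 and 3336 (GF), 2567, 1325 and 1885 (COLONIZED) and 998, 1622 and 1487 (CONV) normalized counts of Ern2, against 1909 to 3100.3 in the 9 WT libraries. Whether these reads fall outside the deleted part was not tested, and the genotype is therefore given as a label throughout. CONV-WT replicate 3 stood apart from its group, with Muc2 at 25213 normalized counts against 223342 and 194319 in the other 2, and GF-WT replicate 3 was the lowest of its group for 42 of 50 members. GF-Ern2-/- replicate 2 also stood apart, with Muc2 at 9756 against 39100.2 and 25790 in the other 2, and was the lowest of its group for 31 of 50 members. Y-linked counts above 5 CPM were present in none of the 3 GF-WT, 2 COLONIZED-WT and 1 CONV-WT libraries, and in 2, 2 and 3 of the GF, COLONIZED and CONV libraries labelled Ern2-/-. Epithelial markers (7 genes) summed to 114448 to 159102 normalized counts per library, and the 14 immune markers to 94 to 387. In bulk crypts, fewer cells of a type and less RNA per cell cannot be told apart.

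The first comparison asked how these genes differed in WT crypts 14 days after colonization. In COLONIZED-WT, 15 of 50 members were higher than in GF-WT and 0 were lower, at a DESeq2 adjusted p under 0.01 over all genes tested, which is what "called" means hereafter. Over all 13893 genes tested, 17.9% were called, 9.13% as higher and 8.75% as lower. The genes called came from every role except Myc itself, with 3 of 4 box H/ACA proteins, 2 of 3 box C/D proteins, 2 of 7 RNA polymerase I genes, 1 of 5 scaffold genes, 4 of 18 small subunit factors and 3 of 12 large subunit factors. The median log2 fold change of the members was 0.37, against -0.012 for all genes tested, and 48 of 50 lay above 0, as did 49% of all genes. Each library's log2 deviation from the mean of all 18 was correlated with transcript length over 11499 genes (Spearman). The correlations were 0.18, -0.0063 and 0.26 in GF-WT and -0.067, -0.16 and -0.058 in COLONIZED-WT, without overlap. Over the 50 members alone they were 0.19, -0.048 and 0.25 in GF-WT and 0.071, -0.089 and 0.030 in COLONIZED-WT, which overlapped. In the libraries labelled Ern2-/- the all-gene values also overlapped, at 0.13, -0.20 and 0.074 in GF and 0.16, 0.33 and 0.043 in COLONIZED. The part of this length trend in the members' values was not tested.

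Among the scaffold proteins, Nolc1, which brings small nucleolar ribonucleoproteins together with their assembly factors, had 784, 685 and 559 normalized counts in GF-WT and 1613, 1191 and 1261 in COLONIZED-WT. All colonized libraries lay above all germ-free ones, and the log2 fold change was 1.01 ± 0.18, adjusted p = 1.5e-06 (SE here and below). Nucleophosmin (Npm1), a chaperone that shapes the granular part of the nucleolus, did not follow, with 4527, 4562 and 3583 against 4027, 4260.2 and 4186 and -0.013 ± 0.14, adjusted p = 0.96. Nucleolin (Ncl) had 6408, 6125 and 5960.4 in GF-WT and 7816, 6808 and 6374 in COLONIZED-WT, overlapping ranges (0.19 ± 0.13, adjusted p = 0.26). The helicase gene Ddx21 and Mybbp1a did not overlap between the groups but missed the threshold (adjusted p = 0.043 and 0.037).

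In the box C/D particle, which methylates the precursor, fibrillarin (Fbl), its methyltransferase, had 383, 394 and 292 normalized counts in GF-WT and 633, 603 and 582 in COLONIZED-WT. The scaffold protein Nop56 had 627, 487 and 415 and 1056, 743 and 878. Both were higher in every colonized library than in any germ-free one, by 0.78 ± 0.16, adjusted p = 4.3e-05 and 0.82 ± 0.20, adjusted p = 0.00063 on the log2 scale. Their partner Nop58 differed by 0.37 ± 0.17, adjusted p = 0.079, short of the threshold.

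In the box H/ACA particle, which pseudouridylates, Nhp2 had 501, 570.2 and 359.6 normalized counts in GF-WT and 989.7, 825 and 861 in COLONIZED-WT, without overlap (0.91 ± 0.19, adjusted p = 4.7e-05). Gar1 had 259.7, 193 and 171 against 433, 361 and 311, again without overlap (0.84 ± 0.22, adjusted p = 0.0011), and Nop10 rose by 0.59 ± 0.17, adjusted p = 0.0048. Dyskerin (Dkc1), the pseudouridine synthase, had 491, 479 and 364 against 681, 563 and 569 and was not called (0.45 ± 0.17, adjusted p = 0.036), although its groups did not overlap either.

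For RNA polymerase I, the largest subunit Polr1a had 669, 582 and 440.1 normalized counts in GF-WT and 995, 743 and 894 in COLONIZED-WT (0.65 ± 0.20, adjusted p = 0.0059). Polr1e, a subunit of the heterodimer that aids initiation and elongation, had 149, 124 and 121 and 261, 191 and 229 (0.80 ± 0.20, adjusted p = 0.00093). The groups did not overlap for either. The second largest subunit Polr1b overlapped (634, 544 and 410.3 against 754, 619 and 661, 0.37 ± 0.19, adjusted p = 0.13), as did Ubtf, the factor that opens ribosomal DNA (2639, 2441 and 2742 against 2618, 2739.7 and 2529, 0.021 ± 0.12, adjusted p = 0.92). Polr1c, shared with RNA polymerase III, and the initiation factor Rrn3 had log2 fold changes of 0.032 ± 0.15 and 0.13 ± 0.15.

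Small subunit factors called were Rrp12, an export factor, with 297, 256 and 213 in GF-WT and 550.5, 358 and 437 in COLONIZED-WT (0.82 ± 0.21, adjusted p = 0.0011), Heatr1, which is also needed for polymerase I transcription, with 614, 489 and 437 and 884, 749.9 and 755 (0.65 ± 0.17, adjusted p = 0.0017), Noc4l (0.68 ± 0.17, adjusted p = 0.001) and the late assembly factor Bysl (399, 261 and 288 against 537, 444 and 472, 0.63 ± 0.20, adjusted p = 0.0094). None of these 4 overlapped between the groups. Large subunit factors called were Bop1, with 755, 728 and 659 against 1119, 1049 and 1095 (0.62 ± 0.12, adjusted p = 1.5e-05), Rrp1b, with 187, 149.9 and 167 against 406, 266 and 289 (0.94 ± 0.22, adjusted p = 0.00021), and Nop16 (0.59 ± 0.19, adjusted p = 0.0094). BOP1 works in a complex with PES1 and WDR12. Pes1 had 899, 986 and 807 against 1260.0, 1114 and 1103 and Wdr12 233, 208 and 153 against 240.3, 239 and 187, neither called (adjusted p = 0.028 and 0.58). The RNA methyltransferase gene Nop2 had 748, 607 and 523 and 831, 689 and 735 (0.27 ± 0.17, adjusted p = 0.24).

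Myc had 985, 667 and 553 normalized counts in GF-WT and 1220.0, 929.9 and 1039 in COLONIZED-WT. GF-WT replicate 1 lay within the colonized range, and the difference of 0.54 ± 0.22, adjusted p = 0.051 missed the threshold.

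Without overlap between the groups were 29 of 50 members, all higher in COLONIZED-WT, where 23.7% of the 12441 genes with a mean of at least 10 normalized counts were higher without overlap. With edgeR 3 members were called (Nolc1, Bop1 and Fbl, beside 4.94% of genes) with a term for Y-linked counts 0 (1.88% of genes) and with one for library total 4 (10.1%), against 27 with an unadjusted p under 0.05 in DESeq2 without such a term (38.6% of genes). Y-linked counts cannot be told apart from the group for the 2 colonized libraries that carried them. COLONIZED-WT replicate 2, which had no such counts, lay above every GF-WT library for 32 of 50 members (64.0%) and for 31.7% of all genes. Leaving out GF-WT replicates 1, 2 and 3 in turn gave 19, 7 and 10 members called (19.3%, 14% and 15.2% of genes). Leaving out COLONIZED-WT replicates 1, 2 and 3 gave 5, 11 and 8 (9.02%, 14.2% and 11.6% of genes), and Nolc1, Bop1, Fbl, Nhp2 and Rrp1b were called each time.

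**Figure D1:**
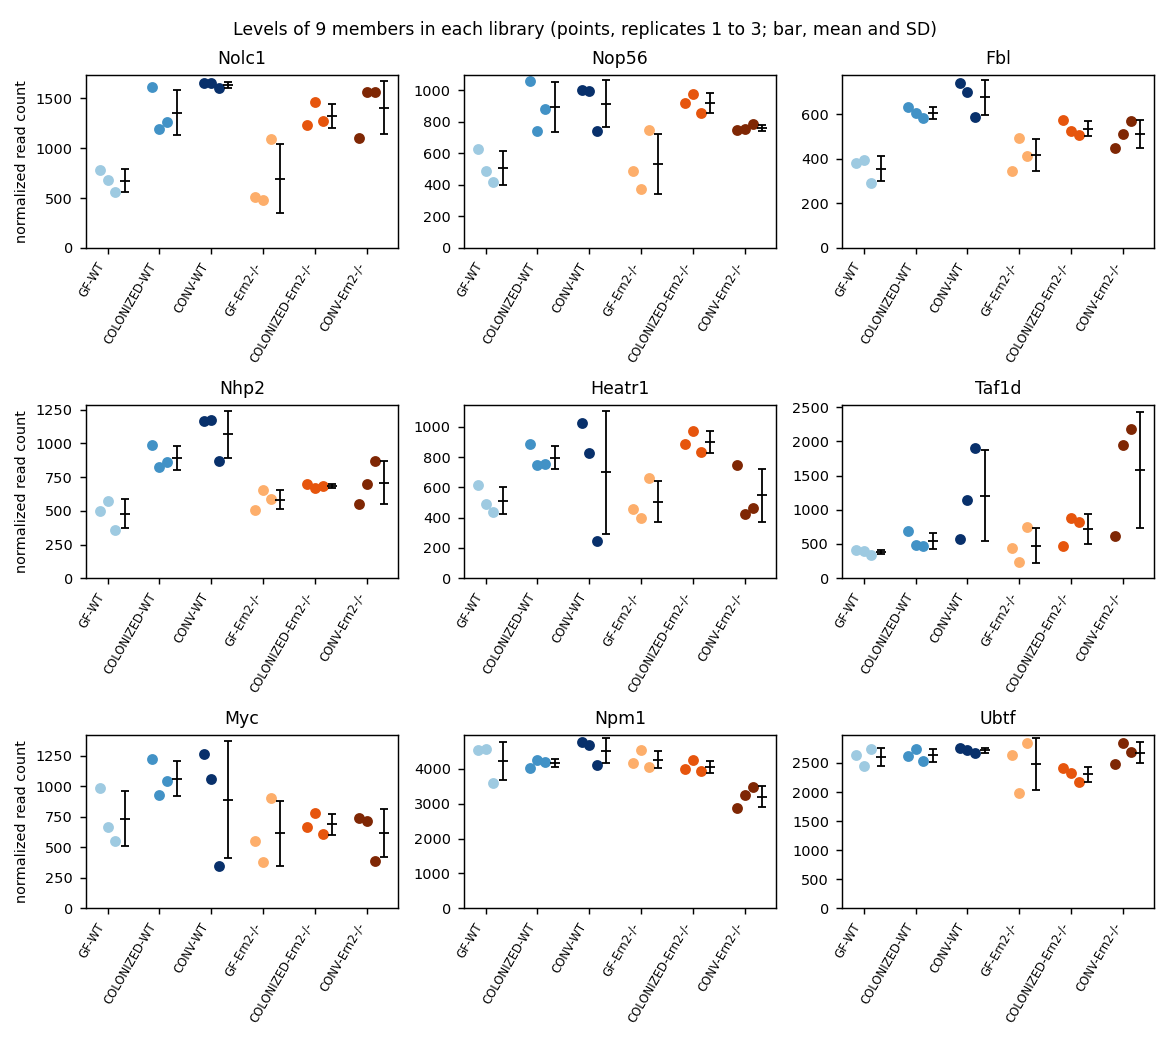
Normalized read counts (linear axes from 0) of 9 members in every library of the 6 groups, as points for replicates 1 to 3, with the mean and SD as a bar beside them. Nolc1, Nop56, Fbl and Nhp2 separated GF-WT from both microbe-exposed WT groups, whereas Npm1 and Ubtf did not, and CONV-WT replicate 3 was at 247 for Heatr1 and 351 for Myc but at 1897 for Taf1d.

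The second comparison asked how WT crypts with a conventional flora differed from germ-free ones. In CONV-WT, 14 of 50 members were called higher than in GF-WT and 0 lower, where 10.7% of 14133 genes were called with 5.56% higher and 5.14% lower. All 3 box C/D proteins were called, with 2 of 4 box H/ACA proteins, 3 of 5 scaffold genes, 1 of 7 RNA polymerase I genes, 2 of 18 small subunit factors and 3 of 12 large subunit factors. The median log2 fold change was 0.42, against 0.00038 for all genes, and 49 of 50 members lay above 0 (50% of genes), the exception being Utp20 (-0.11 ± 0.44, adjusted p = 0.9).

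Nolc1 had 1655, 1652 and 1602 normalized counts in CONV-WT, above the 559 to 784 of GF-WT (1.27 ± 0.19, adjusted p = 2.6e-09). Ncl had 8141, 9192 and 11449.8, above every GF-WT library (0.63 ± 0.19, adjusted p = 0.0094), and CONV-WT replicate 3 was the highest of them. The helicase gene Ddx21 had 2614, 2473 and 2838 against 1841, 1683 and 1674 (0.60 ± 0.14, adjusted p = 0.00037). Npm1 again overlapped (4760.3, 4675 and 4103, 0.086 ± 0.18, adjusted p = 0.8).

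Of the small nucleolar ribonucleoprotein genes, Fbl had 740.3, 699 and 588 (0.92 ± 0.21, adjusted p = 0.00034), Nop56 1002, 997 and 741 (0.83 ± 0.25, adjusted p = 0.0079) and Nop58 1485, 1739 and 1510.2 against 1073, 945 and 809 in GF-WT (0.73 ± 0.18, adjusted p = 0.0012). Nhp2 had 1164, 1175 and 867 (1.16 ± 0.26, adjusted p = 0.00021) and Dkc1 790.2, 848 and 729 (0.82 ± 0.20, adjusted p = 0.00065). All 5 were higher in every CONV-WT library than in any GF-WT library. Gar1 missed the threshold (0.90 ± 0.28, adjusted p = 0.011), and Nop10 overlapped, with CONV-WT replicate 3 at 524, within the germ-free range.

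Taf1d, a subunit of the promoter selectivity factor of RNA polymerase I, had the largest fold change of any member, with 412, 390.2 and 345 in GF-WT and 576, 1144 and 1897 in CONV-WT (1.65 ± 0.43, adjusted p = 0.0019). All CONV-WT libraries lay above GF-WT, and replicate 3, the shallowest, was the highest. With library total in the fit the difference was 0.50 (DESeq2 adjusted p = 0.44). The other polymerase I genes were not called: Polr1a had 1015, 825 and 650.1 (0.55 ± 0.27, adjusted p = 0.15), Polr1b 832, 679.5 and 289 (0.17 ± 0.42, adjusted p = 0.83) and Ubtf 2760.2, 2719 and 2666 (0.049 ± 0.12, adjusted p = 0.84).

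Among processing factors, Rrp1b had 317, 359.5 and 256 (0.88 ± 0.22, adjusted p = 0.0012), Nop16 739, 677 and 619 against 429, 411 and 308 in GF-WT (0.82 ± 0.21, adjusted p = 0.0015), and the helicase genes Ddx18 and Ddx10 rose by 0.70 ± 0.18, adjusted p = 0.0013 and 0.75 ± 0.20, adjusted p = 0.0026. Wdr43, a small subunit processome component, rose by 0.62 ± 0.17, adjusted p = 0.0044. Not called were Bysl (602, 584 and 362, 0.70 ± 0.30, adjusted p = 0.09), Rrp12 (555, 467 and 310.4, 0.79 ± 0.29, adjusted p = 0.039), Bop1 (1199.5, 1007 and 816, 0.49 ± 0.21, adjusted p = 0.087), Pes1 (1348, 1135 and 1098, 0.40 ± 0.18, adjusted p = 0.1) and Nop2 (926, 886 and 615, 0.36 ± 0.26, adjusted p = 0.36). For each of these 5 the lowest CONV-WT library was replicate 3, and Bysl and Nop2 overlapped with GF-WT. Heatr1 had 1025, 826 and 247 and Myc 1261, 1059.8 and 351, with replicate 3 below every GF-WT library in both (0.44 ± 0.50, adjusted p = 0.6 and 0.27 ± 0.49, adjusted p = 0.77).

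CONV-WT and GF-WT did not overlap for 25 of 50 members, all higher in CONV-WT, against 18.6% of genes. The count of called members rested on single libraries. It was 23 without CONV-WT replicate 3, where 20.3% of all genes were called in the same fit. It was 1 (Nolc1) without CONV-WT replicate 2 (4.34% of genes), 2 without CONV-WT replicate 1 (6.83%), and 6, 3 and 2 without GF-WT replicates 1, 2 and 3 (5.76%, 4.99% and 5.13%). A term for Y-linked counts left 3 members called (6.7% of genes), one for library total 3 (7.98%) and a replicate block 8 (9.17%). With edgeR 0 members were called, although 25 had an unadjusted DESeq2 p under 0.05 (30% of genes), and edgeR called 22 of 12603 genes (0.175%).

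Across both comparisons, which share the GF-WT libraries, Nolc1, Nhp2, Fbl, Nop56, Rrp1b and Nop16 were called in each. Ncl, Nop58, Dkc1, Ddx21, Ddx18, Ddx10, Wdr43 and Taf1d were called in CONV-WT alone and Bop1, Rrp12, Heatr1, Polr1a, Polr1e, Gar1, Nop10, Noc4l and Bysl in COLONIZED-WT alone. A direct comparison of CONV-WT with COLONIZED-WT called 0 of 50 members (7 with an unadjusted p under 0.05, beside 8.89% of genes) and 0.117% of 13708 genes, with edgeR calling 0 members and 0% of genes. The median log2 fold change was 0.085, against 0.015 over all genes, and the smallest adjusted p was that of Ddx10 (699, 645 and 878 against 526, 474 and 494, 0.56 ± 0.19, adjusted p = 0.17).

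**Figure D2:**
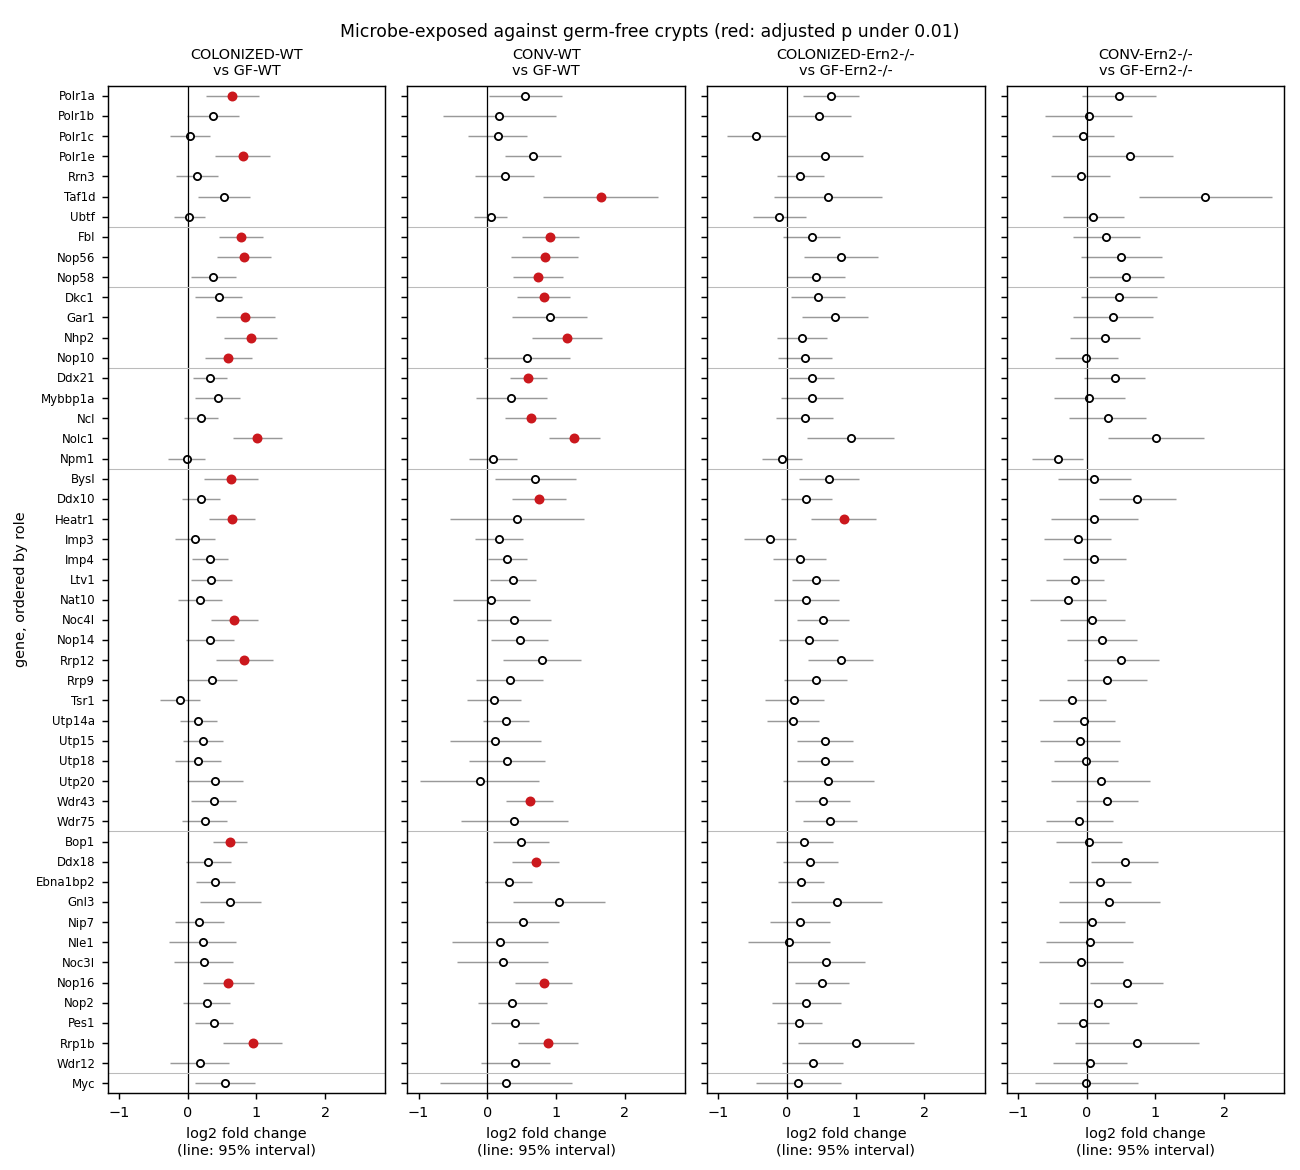
Log2 fold change of each of the 50 members (rows, ordered by role) with its 95% interval as a line, in microbe-exposed against germ-free crypts of the same genotype label, from DESeq2 with 3 libraries a group. Filled red points have an adjusted p under 0.01: 15, 14, 1 and 0 members in the panels from left to right, and nearly all points of the 2 WT panels lie to the right of 0.

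In the libraries labelled Ern2-/-, COLONIZED against GF called 1 of 50 members, Heatr1, as higher and 0 as lower, where 7.22% of 13873 genes were called with 3.62% higher and 3.6% lower. At an unadjusted p under 0.05 there were 23 members (25.2% of genes), and edgeR called 0 members and 0.216% of genes. Heatr1 had 456, 400.1 and 662 normalized counts in GF and 886, 975 and 832 in COLONIZED libraries (0.83 ± 0.24, adjusted p = 0.0081), without overlap. The members as a list sat 0.37 above GF at their median, against -0.022 for all genes, 46 of 50 lay above 0 (48.2% of genes), 30 were higher without overlap (16.7% of genes) and 2 lower (17.6%). Next by adjusted p came Rrp12 (225, 225 and 348 against 464, 461 and 446, 0.78 ± 0.24, adjusted p = 0.015), Wdr75 (0.62 ± 0.20, adjusted p = 0.019) and Polr1a (553, 427 and 639.9 against 834, 861 and 842, 0.64 ± 0.21, adjusted p = 0.02).

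Within GF, the library labelled Ern2-/- replicate 3 was the highest of its group for 37 of 50 members. Nolc1 had 512, 479 and 1092 in these GF libraries and 1233, 1460.5 and 1271 in the COLONIZED ones (0.93 ± 0.33, adjusted p = 0.038), and Nop56 had 485, 371 and 744 and 919.9, 977 and 855 (0.78 ± 0.27, adjusted p = 0.038). In both genes replicate 3 stood above the other 2 GF libraries but below every COLONIZED library. Leaving out that library gave 11 members called, beside 8.07% of all genes in that fit. Leaving out any other gave 0 or 1, beside 3.45% to 10.2% of genes. Replicate 3 is also one of the GF libraries whose Ern2 count was at the WT level. Without replicate 1, the other such library, 0 members were called, beside 5.51% of genes. Without replicate 2, the library with the low Muc2 count, Polr1a was called (0.52, adjusted p = 0.0086) and Heatr1 was not (0.70, adjusted p = 0.0103).

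CONV against GF in the libraries labelled Ern2-/- called 0 of 50 members (8 with an unadjusted p under 0.05, beside 19.7% of genes, and 0 with edgeR, beside 0.0325%) and 4.36% of 13323 genes. The median log2 fold change of the members was 0.11, against -0.0074 over all genes, and 35 of 50 lay above 0 (49.2% of genes). Over the alternatives the members' median ran from 0.036 to 0.28. Closest to the threshold was Taf1d, with 435, 239.7 and 747 in GF and 612, 1949 and 2177 in CONV (1.73 ± 0.49, adjusted p = 0.011), the groups overlapping through GF replicate 3, and 0.22 with library total in the fit. Nolc1 had 1101, 1562 and 1559 in CONV, all above the GF libraries (1.01 ± 0.36, adjusted p = 0.06), whereas Npm1 had 2881, 3248 and 3485 against 4176, 4538 and 4065 in GF, all below (-0.42 ± 0.19, adjusted p = 0.18). Heatr1, with 748, 427 and 466 in CONV, overlapped with GF. The count was 3 without GF-Ern2-/- replicate 3 (4.08% of genes), 2 without CONV-Ern2-/- replicate 1 (6.17%) and 0 without any 1 of the other libraries (1.91% to 7.2%).

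CONV and COLONIZED libraries labelled Ern2-/- differed in 1 member, Wdr75, a small subunit processome component, which had 391, 302 and 353 against 528, 622 and 587 (-0.72 ± 0.19, adjusted p = 0.0037), where 8.37% of 13340 genes were called and 3.62% were lower. With edgeR 0 members and 0.282% of genes were called, beside 14 members with an unadjusted DESeq2 p under 0.05 (29.8% of genes). The median log2 fold change was -0.19, against -0.0056 over all genes. Without overlap, 19 of 50 members were lower in CONV and 2 higher, against 18.7% and 17.8% of genes. In the same comparison 8 of 15 proliferation genes were called lower (median -0.79), 6 of 8 surface colonocyte markers higher (median 1.58) and 4 of 9 goblet markers lower (median -1.21). Enteroendocrine markers were lower in 3 of 7 (median -1.41), mesenchymal markers higher in 2 of 7 tested, Col3a1 and Myh11, and 1 of 3 endothelial markers tested, Pecam1, was higher (2.83 ± 0.53, adjusted p = 7.5e-06). Of 10 Myc network genes, Mxi1 (1.29 ± 0.17, adjusted p = 5.3e-11), Mxd1 (2.22 ± 0.32, adjusted p = 1.3e-09) and Max (0.90 ± 0.26, adjusted p = 0.0079) were higher. The part of these lists in the members' values was not tested. The count was 8 (6 lower) without CONV-Ern2-/- replicate 1, beside 18.5% of genes, and 0 without any 1 of the other libraries (3.34% to 6%).

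**Figure D3:**
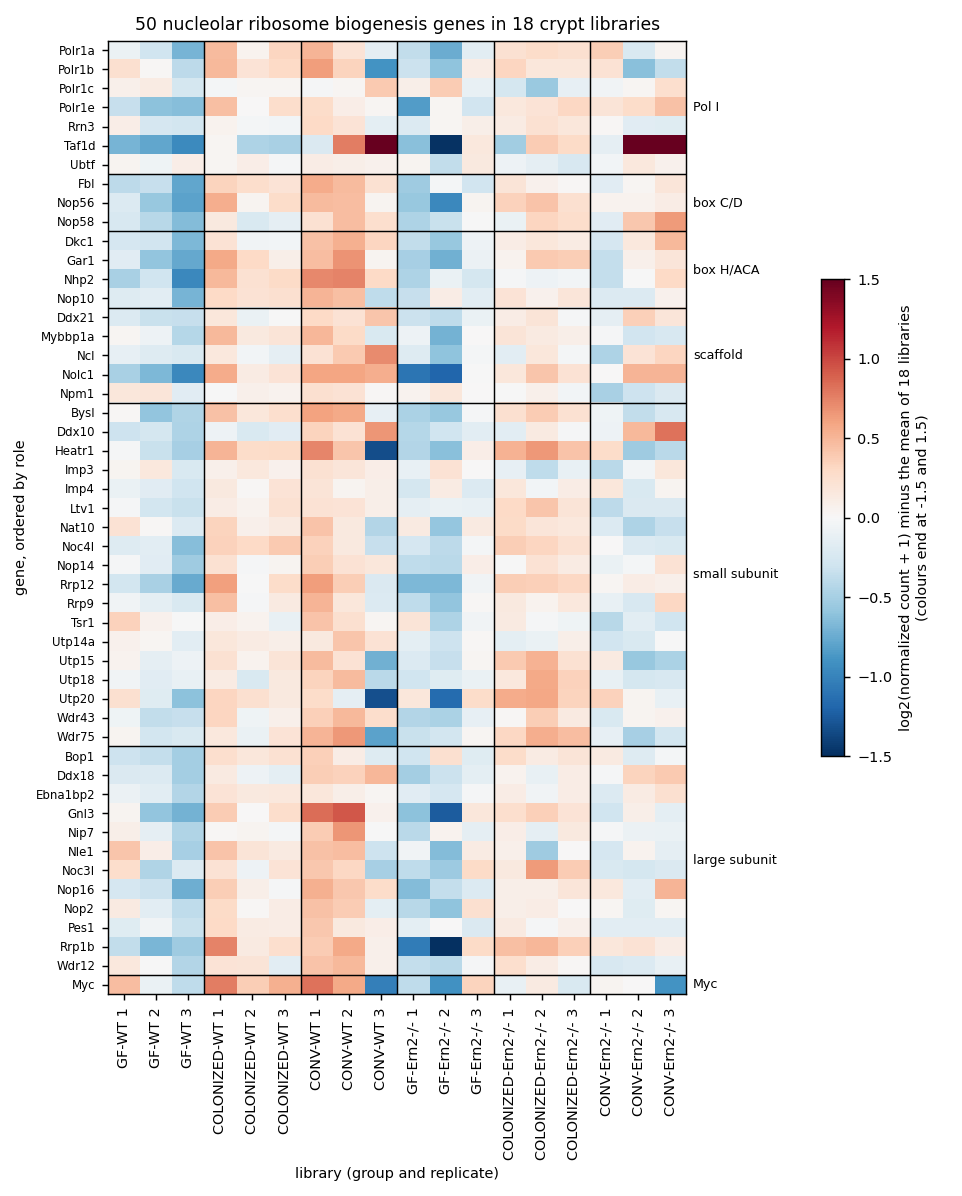
Log2(normalized count + 1) of each member minus its mean over the 18 libraries (colour, ending at -1.5 and 1.5), with members in rows by role and libraries in columns by group. The GF columns are mostly blue and the COLONIZED columns mostly red, in WT and in the libraries labelled Ern2-/-, and CONV-WT replicate 3 shows both deep blue cells (Heatr1, Utp20, Myc) and red ones (Taf1d, Ncl).

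Genotype labels were then compared within each microbial state. In GF, 0 of 50 members were called (0 also at an unadjusted p under 0.05, beside 1.48% of genes, and 0 with edgeR, beside 0%) and 0.035% of 17167 genes, with a median log2 fold change of 0.023 for the members and 0.018 for all genes. The members ranged from -0.25 to 0.34, and 0 were called without any 1 of the 6 libraries, beside 0.0059% to 0.077% of genes. Over the alternatives their median ran from -0.23 to 0.20, on both sides of 0. In CONV, 0 of 50 were called (11 with an unadjusted p under 0.05, beside 16.9% of genes, and 0 with edgeR, beside 0%) where 2.89% of 13178 genes were. Their median was -0.31, against 0.020 over all genes, and 5 of 50 lay above 0, beside 51.8% of genes. In the same comparison 6 of 8 surface colonocyte markers were called higher (median 1.82), 5 of 9 goblet markers lower (median -2.09) and 1 of 8 crypt base and stem markers lower (median -0.86), while 0 of 15 proliferation genes were called (median -0.46). The part of these markers in the members' values was not tested. Npm1 came closest, with 2881, 3248 and 3485 against 4760.3, 4675 and 4103 (-0.50 ± 0.17, adjusted p = 0.056), followed by Tsr1 (924, 1099.8 and 996 against 1658, 1454 and 1256, -0.54 ± 0.20, adjusted p = 0.095), Gnl3 (-0.78 ± 0.30, adjusted p = 0.12) and Ltv1 (-0.46 ± 0.18, adjusted p = 0.12). The 10 members without overlap were all lower in the libraries labelled Ern2-/-, against 11.5% of genes. Without CONV-WT replicate 3, 4 members were called lower, beside 12.9% of genes called in that fit.

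In COLONIZED, 1 of 50 members was called, Myc, as lower, where 1.36% of 12181 genes were called and 0.846% were lower. At an unadjusted p under 0.05 there were 6 members (22% of genes). Myc had 664, 784 and 613 normalized counts in the libraries labelled Ern2-/- and 1220.0, 929.9 and 1039 in WT, all lower (-0.63 ± 0.16, adjusted p = 0.0076). The call was lost with edgeR, which called 0.00786% of genes (adjusted p = 0.15, range over alternatives 0.0013 to 0.58), with library total, a replicate block or all 18 libraries in the fit, and when any library other than COLONIZED-Ern2-/- replicate 2 was left out, among them COLONIZED-Ern2-/- replicate 1, which had Ern2 at the WT level. In this comparison 3 of 9 goblet markers (median -0.82) and 1 of 8 crypt base and stem markers, Ascl2 (-1.27 ± 0.28, adjusted p = 0.0011), were also called lower, and their part in the Myc level was not tested. Among the members Nhp2 was next (696, 668 and 685 against 989.7, 825 and 861, -0.39 ± 0.13, adjusted p = 0.047). The median of the members was -0.0090, as it was near 0 over all genes (-0.0036). In the other states Myc had 552, 383 and 906 in GF and 738, 718 and 386 in CONV libraries labelled Ern2-/-, with log2 fold changes against WT of -0.25 ± 0.35, adjusted p = 1 and -0.53 ± 0.50, adjusted p = 0.67.

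Whether the response to microbes itself differed between the genotype labels was tested by the interaction term. For CONV and GF, 0 of 50 members were called (5 with an unadjusted p under 0.05, beside 8.72% of genes, and 0 with edgeR, beside 0%) and 0.178% of 12938 genes. The median interaction was -0.31 for the members, a smaller response in the libraries labelled Ern2-/-, with 3 of 50 above 0 where 48.1% of genes were, against -0.020 over all genes. Over the alternatives the members' median ran from -0.44 to -0.19. For the same interaction the median was 1.99 for surface colonocyte markers (1 of 8 called, Ceacam20), -1.35 for goblet markers, -0.65 for proliferation genes and -0.50 for ribosomal protein genes, with 0 called in these last 3 lists, and their part in the members' values was not tested. Ltv1 and Nhp2 had the smallest p values, at -0.55 ± 0.20, adjusted p = 0.24 and -0.90 ± 0.35, adjusted p = 0.31, and the 95% interval for Nhp2 ran from -1.58 to -0.22. For COLONIZED and GF, 0 of 50 were called (1 with an unadjusted p under 0.05, beside 5.76% of genes, and 0 with edgeR, beside 0%) and 0.028% of 17884 genes, with a median of 0.0071. The median of ribosomal protein genes was -0.61 here. It was -0.18 for goblet markers, -0.16 for proliferation genes and -0.029 for surface colonocyte markers, with 0 called in any of these lists. Their part in the members' values was not tested. Nhp2 again had the smallest p (-0.68 ± 0.26, adjusted p = 0.84, interval -1.19 to -0.18). Neither interaction called a member without any 1 of its 12 libraries. These intervals do not show that the groups with different genotype labels responded alike.

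Members given in every group are listed for the libraries labelled Ern2-/- as mean ± SD of 3. Fbl was at 417 ± 73.3 (GF), 536 ± 33.9 (COLONIZED) and 511 ± 61.6 (CONV). Nop56 in CONV was at 761 ± 19.9 and Polr1a at 752 ± 157. Dkc1 was at 466 ± 80.4, 639.8 ± 14.2 and 653 ± 162 in the same order, and Ncl at 5841 ± 1148, 7001 ± 809.8 and 7269 ± 1949. The groups of 3 overlapped for Ncl. Npm1 in COLONIZED had 4006, 4255 and 3927 normalized counts in the 3 libraries. Bysl was at 313 ± 67, 481 ± 29.5 and 339 ± 35.5, and Rrp12 in CONV at 379 ± 10.2. For the large subunit, Bop1 was at 898 ± 185, 1074 ± 58.9 and 919.9 ± 105, Pes1 at 943 ± 72.9, 1069 ± 59.6 and 916 ± 0.963, and Nop2 at 587 ± 189, 715 ± 26.9 and 663 ± 53. Ubtf was at 2486 ± 449, 2305 ± 126 and 2673 ± 179.6, and Polr1b at 454 ± 115, 628 ± 37.6 and 463 ± 143.

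The 25 members called in none of the 9 comparisons were the polymerase I genes Polr1b, Polr1c, Rrn3 and Ubtf, the scaffold genes Npm1 and Mybbp1a, the small subunit factors Imp3, Imp4, Ltv1, Nat10, Nop14, Rrp9, Tsr1, Utp14a, Utp15, Utp18 and Utp20, and the large subunit factors Ebna1bp2, Gnl3, Nip7, Nle1, Noc3l, Nop2, Pes1 and Wdr12. Gnl3, which encodes nucleostemin, was at 476, 309 and 283 (GF-WT), 605, 466 and 558 (COLONIZED-WT) and 834, 889 and 488 (CONV-WT), where its fold change of 1.04 ± 0.34, adjusted p = 0.017 missed the threshold. The log2 fold changes of these 25 ran from -0.12 to 0.62 with a median of 0.22 in COLONIZED-WT, and from -0.11 to 1.04 with a median of 0.27 in CONV-WT, each against GF-WT. Utp20, a scaffold of the small subunit precursor, ranged from 900.3 in CONV-WT replicate 3 to 3379 in COLONIZED-Ern2-/- replicate 2.

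Some members carry small nucleolar RNA genes inside their own gene bodies, the RNAs that the box C/D and box H/ACA proteins bind. By the GENCODE annotation these were Taf1d (8 such genes), Nop56 (5), Nop58 (4), Ncl, Gnl3 and Wdr43 (3 each), Tsr1 (2) and Dkc1 (1), or 8 of 50 members (16.0%) against 1.19% of 19569 protein-coding genes. In CONV-WT against GF-WT, 6 of these 8 were called higher with a median log2 fold change of 0.78, and 8 of the 42 other members with a median of 0.39, where 5.56% of all genes were higher. Without CONV-WT replicate 2 none of the 8 was called, beside 4.34% of all genes. In COLONIZED-WT against GF-WT, 1 of 8 (Nop56) was called with a median of 0.42, and 14 of 42 with a median of 0.35, where 9.13% of all genes were higher. Whether the 8 differ from the other members was not tested. Taf1d was at 1897, 1949 and 2177 normalized counts in CONV-WT replicate 3 and CONV-Ern2-/- replicates 2 and 3, the 3 shallowest libraries, and at 239.7 to 1144 in the other 15. Of the 11 members with a CACGTG in the promoter window, 1 (Wdr43) was called in the CONV-WT comparison, with a median log2 fold change of 0.29, and 12 of the 34 others, with a median of 0.56. The COLONIZED-WT comparison called 0 of 11 and 12 of 34, with medians of 0.32 and 0.37. The shares over all genes are the same 5.56% and 9.13%, and with 11 genes the difference between the classes was not tested.

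Other genes of the pathway were taken from a fixed list of 102. In CONV-WT against GF-WT, 14 were called higher and 0 lower, and in COLONIZED-WT 14 higher and 1 lower, where 5.56% and 9.13% of all genes were higher. Called in CONV-WT were the polymerase I subunit genes Twistnb (1.20 ± 0.23, adjusted p = 5.7e-06) and Cd3eap (1.29 ± 0.27, adjusted p = 4.6e-05), the nucleolar gene Lyar (1.88 ± 0.38, adjusted p = 2.7e-05) and the exosome subunit gene Exosc2 (0.85 ± 0.16, adjusted p = 6.1e-06). COLONIZED-WT was higher in Emg1, a methyltransferase of the small subunit RNA (0.80 ± 0.15, adjusted p = 4.1e-06), Exosc2 (0.85 ± 0.17, adjusted p = 1.1e-05) and Lyar (1.01 ± 0.22, adjusted p = 8.2e-05), and lower in Sbds, a late large subunit factor (-0.55 ± 0.14, adjusted p = 0.00057). By class, the calls in CONV-WT were 2 of 7 for RNA polymerase I, 2 of 33 for the small subunit, 7 of 45 for the large subunit and 3 of 17 for the exosome and snoRNP assembly, and 0 of 7, 3 of 33, 7 of 45 and 4 of 17 were higher in COLONIZED-WT. None of the 102 was called in CONV or COLONIZED against GF in the libraries labelled Ern2-/-, beside 4.36% and 7.22% of all genes. Their median log2 fold changes there were 0.13 and 0.25, beside 0.37 and 0.30 in CONV-WT and COLONIZED-WT against GF-WT.

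Genes of cytosolic ribosomal proteins, the products that these factors assemble with RNA, were called higher in 12 of 73 tested for CONV-WT and 10 of 73 for COLONIZED-WT, with medians of 0.50 and 0.36, where 5.56% and 9.13% of all genes were higher. In the libraries labelled Ern2-/- their median was -0.24 for COLONIZED against GF with 0 called. By library, their median deviation was -0.14, -0.62 and -0.11 in COLONIZED and -0.21, 0.18 and -0.10 in GF, and these ranges overlapped. Their median log2 fold change was -0.099 without COLONIZED replicate 2 and -0.11 without GF replicate 2. In the genotype comparison, 4 of 72 were called lower in COLONIZED-Ern2-/- than in COLONIZED-WT, where 0.846% of all genes were lower. The median of the list was -0.45 there. Enzymes of nucleotide and polyamine synthesis were called higher in 4 of 11 for CONV-WT, among them spermidine synthase Srm (1.46 ± 0.37, adjusted p = 0.0012) and Nme1 (1.06 ± 0.29, adjusted p = 0.0031), and in 5 of 11 for COLONIZED-WT (1.25 ± 0.24, adjusted p = 7.6e-06 for Srm and 0.92 ± 0.16, adjusted p = 6.7e-07 for Nme1). In the libraries labelled Ern2-/- 2 of 11, Ctps and Gart, were higher in COLONIZED than in GF (median 0.46 beside 0.48 in WT) and 0 in CONV, and the CONV genotype comparison called Impdh2 as lower (-0.60 ± 0.16, adjusted p = 0.0054). In the Myc network, Mxd3 was higher in CONV-WT (1.41 ± 0.34, adjusted p = 0.00079) and COLONIZED-WT (1.15 ± 0.30, adjusted p = 0.0013). Mxd1, an antagonist that pairs with MAX, was lower in COLONIZED-WT (-1.60 ± 0.32, adjusted p = 1.2e-05), as was Max itself (-1.24 ± 0.21, adjusted p = 9.3e-08), and both were lower in COLONIZED libraries labelled Ern2-/- (-1.40 ± 0.20, adjusted p = 1.2e-09 and -1.03 ± 0.18, adjusted p = 1.8e-06).

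Of 15 proliferation genes, 15 were called higher in COLONIZED-WT than in GF-WT and 9 in CONV-WT, with a median log2 fold change of 1.01 in each, and 13 in COLONIZED against GF in the libraries labelled Ern2-/- (median 0.99), where 1 member was called. Replication helicase genes were among them, Mcm6 with 1.16 ± 0.23, adjusted p = 1.2e-05 in CONV-WT and Mcm3 with 1.70 ± 0.20, adjusted p = 9.3e-15 in COLONIZED-WT. For CONV against GF in those labelled Ern2-/- the count was 0 of 15 (median 0.27). Surface colonocyte markers went the other way, 5 of 8 lower in CONV-WT, 2 of 8 in COLONIZED-WT and 5 of 8 in COLONIZED-Ern2-/-. Their summed counts ran from 33693 to 103399 (GF-WT), 20032 to 39112 (COLONIZED-WT) and 20314 to 34014 (CONV-WT), and from 48574 to 95905, 23773 to 31504 and 68636 to 88997 in the GF, COLONIZED and CONV libraries labelled Ern2-/-. Crypt base and stem markers summed to 5689.6 to 7131 (GF-WT), 9229 to 12483 (COLONIZED-WT) and 6989 to 12548 (CONV-WT), with 2 of 8 called higher in COLONIZED-WT and 1 of 8 in CONV-WT. In the GF, COLONIZED and CONV libraries labelled Ern2-/- they summed to 4009 to 7219.7, 8182 to 9734 and 5594 to 8248, with 2 (Cd44 and Ephb2) and 1 (Cd44) of 8 called higher in COLONIZED and CONV against GF, although the medians of the 8 were -0.050 and -0.32. Goblet markers were called higher in 5 and lower in 2 of 9 for COLONIZED-WT and 2 and 2 of 9 for CONV-WT, and summed to 207184 to 328652 (GF-WT), 324882 to 440204 (COLONIZED-WT) and 91588 to 622010.2 (CONV-WT). These 9 included both Clca3 and Clca1, entered in the list as alternative symbols of 1 marker. The libraries labelled Ern2-/- had goblet sums of 99361 to 238216 (GF), 155988 to 302819.6 (COLONIZED) and 67308 to 85892 (CONV), with 3 of 9 called higher and 1 lower in COLONIZED and 4 lower in CONV against GF. Tuft markers were called higher in 5 of 5 for COLONIZED-WT and 3 of 5 for CONV-WT, and in 1 and 2 of 5 for COLONIZED and CONV against GF in the libraries labelled Ern2-/-. Of 7 enteroendocrine markers 0 were called in either WT comparison. In the libraries labelled Ern2-/- 3 were higher in COLONIZED than in GF, among them Chgb (2.82 ± 0.41, adjusted p = 2.4e-09), and 2 were higher and 1 lower in CONV. Mesenchymal markers summed to 5.55 to 15.4 in GF-WT and 28.3 to 272 in CONV-WT, with Des and Acta2 called, and endothelial markers to 108 to 169.8 and 91.3 to 153, with 0 called. In the libraries labelled Ern2-/- mesenchymal markers summed to 14.2 to 51.1 (GF), 10.7 to 21.1 (COLONIZED) and 28.2 to 199 (CONV), with Col3a1 called higher in CONV (3.14 ± 0.86, adjusted p = 0.0072), and the endothelial marker Pecam1 was lower in COLONIZED than in GF (-2.24 ± 0.53, adjusted p = 0.00071). The part of cell composition in the members' levels was not tested.

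**Figure D4:**
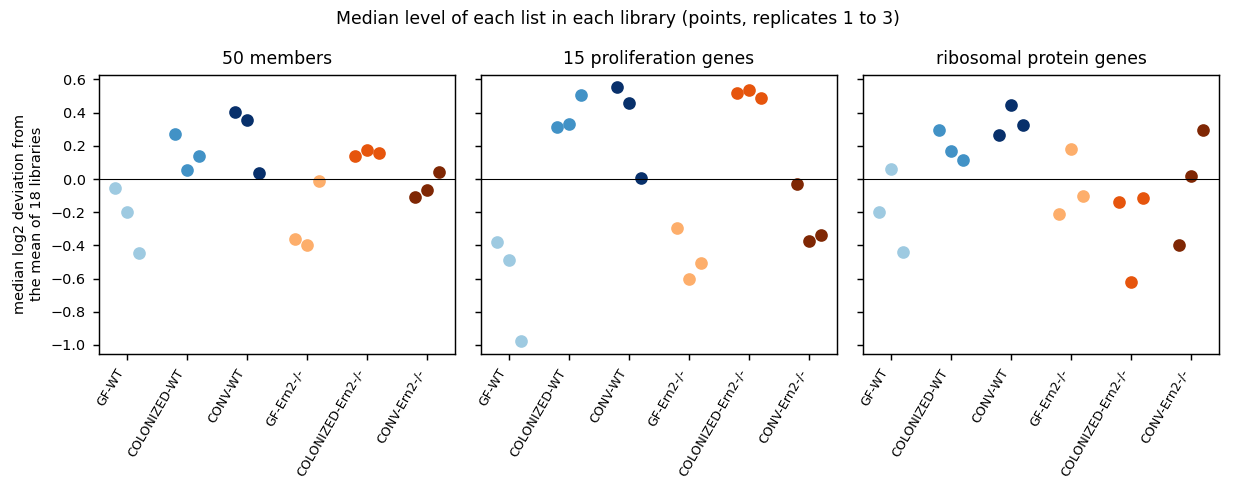
Median log2 deviation from the mean of the 18 libraries for the 50 members, 15 proliferation genes and ribosomal protein genes, one point per library and 3 per group. The ribosomal protein genes are those with a mean of at least 10 normalized counts. GF-WT members ran from -0.45 to -0.05, COLONIZED-WT from 0.05 to 0.27 and CONV-WT from 0.03 (replicate 3) to 0.40, and the COLONIZED libraries labelled Ern2-/- (0.14 to 0.17) had ribosomal protein medians of -0.62 to -0.11.

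By library, the median member of CONV-WT replicate 3 lay 0.03 above the mean of all libraries, against 0.40 and 0.36 for replicates 1 and 2, and its proliferation median was 0.01 against 0.55 and 0.46. In CONV libraries labelled Ern2-/- the median member lay between -0.11 and 0.04, and in the GF ones at -0.36, -0.40 and -0.02. Replicate 3 of CONV-WT was lower than both others for 41 of 50 members, most of all in Heatr1 (-1.90 on the log2 scale against their mean), Myc (-1.72) and Utp20 (-1.39), and higher in 6, most of all in Taf1d (1.22).

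The row of the ribosomal RNA precursor itself, Rn45s, is given because it is the substrate of these proteins. Libraries were made with a kit for messenger RNA, so its counts do not measure the precursor in the crypt. Rn45s had 331079, 312509 and 574559.6 normalized counts in GF-WT and 128237, 96847 and 81357 in GF libraries labelled Ern2-/- (-1.99 ± 0.30, adjusted p = 2e-07). COLONIZED-WT had 226192, 428429 and 180852 and COLONIZED-Ern2-/- 47933, 69038 and 59156 (-2.25 ± 0.28, adjusted p = 6e-13), whereas CONV-WT (268166, 340104 and 501633) and CONV-Ern2-/- (249718, 319992 and 375522) overlapped (-0.23 ± 0.31, adjusted p = 0.79). In GF and COLONIZED the genotype labels did not overlap in Rn45s, and 0 and 1 of the 50 members were called in the same comparisons. With edgeR neither difference passed (edgeR adjusted p = 0.999 in GF and 0.066 in COLONIZED), and what sets the amount of residual ribosomal RNA in a library was not tested.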

How the data were processed

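The authors isolated intact crypts after EDTA treatment of the colon, prepared KAPA stranded mRNA libraries, aligned single-end reads with STAR to mm10 and deposited raw read counts per gene, from which normalized counts (DESeq2 size factors over 18 libraries) were computed here. Whether strand was used in counting, and how reads shared with pseudogenes such as those of Npm1 were assigned, is not given in the sources used here. In 15 of 50 members an exon overlaps one of an opposite-strand gene of the table, among them Nop56, Bop1, Rrp1b, Heatr1, Dkc1, Nhp2, Taf1d and Bysl, called above. Each comparison was fitted to its own 6 libraries (12 for interactions) with DESeq2 1.42.0 in R 4.3.3, with default filtering and no shrinkage. A call was a Benjamini-Hochberg adjusted p under 0.01 over all genes tested. Scripts were tested on data simulated for COLONIZED-WT against GF-WT, where DESeq2 recovered more of the changed genes than edgeR but also made more false calls, a larger share of its calls than the threshold allows. All called members were named in their comparison, including those beyond the 10 with the smallest adjusted p. Given in every group were 15 members, and up to 4 genes were named per further list. Genes singled out beyond that rule (Gnl3, Utp20, Heatr1 in CONV-WT, near-threshold members and Rn45s) were chosen after their values were seen. Members and lists were chosen with earlier results of these data known. The labels do not say that replicates are separate animals, so p-values measure the spread between libraries. Alternatives were edgeR 4.0.16, TMM size factors, a filter of 10 counts in 3 libraries, a replicate block, terms for Y-linked counts (over 5 CPM) and library total, all 18 libraries in 1 fit, and leaving out each library. Annotation was GENCODE M21.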

Additional observations from a re-analysis of the deposited data

How the results depend on the processing

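Counts of called members (DESeq2 adjusted p under 0.01, out of 50) under 153 alternatives stayed within 1.5 times the reported count in 98 and moved beyond it in 55. The median log2 fold change of the members moved by more than the spread between replicates in 8 of 153, and ran over the alternatives from 0.25 to 0.46 for COLONIZED-WT and 0.34 to 0.72 for CONV-WT against GF-WT. It ran from 0.023 to 0.34 (CONV-WT against COLONIZED-WT), 0.036 to 0.28 (CONV-Ern2-/- against GF-Ern2-/-) and 0.33 to 0.53 (COLONIZED-Ern2-/- against GF-Ern2-/-). For CONV-Ern2-/- against COLONIZED-Ern2-/- it ran from -0.26 to -0.17. For the genotype labels it ran from -0.46 to -0.19 in CONV, -0.23 to 0.20 in GF and -0.065 to 0.084 in COLONIZED. For the interactions it ran from -0.44 to -0.19 (CONV) and -0.11 to 0.14 (COLONIZED). Percentages in brackets are the share of all genes called in the same fit. For COLONIZED-WT against GF-WT the reported 15 became 3 with edgeR (4.94%), 0 with a term for Y-linked counts (1.88%), 4 with a term for library total (10.1%) and 9 with all 18 libraries in 1 fit (9.02%). For CONV-WT against GF-WT the reported 14 became 0 with edgeR (0.175%), 3 with the Y-linked term (6.7%) and 3 with library total (7.98%). For COLONIZED-Ern2-/- against GF-Ern2-/- the reported 1 became 0 with edgeR (0.216%), 3 with the Y-linked term (6.93%) and 2 with all 18 libraries (8.3%). For CONV-Ern2-/- against GF-Ern2-/- the reported 0 became 3 with the Y-linked term (4.04%) and 5 with all 18 libraries (6.73%). For CONV-Ern2-/- against CONV-WT the reported 0 became 1 with library total (4.6%) and 2 with all 18 libraries (5.01%). For COLONIZED-Ern2-/- against COLONIZED-WT the reported 1 became 0 with edgeR (0.00786%), library total (0.455%) and all 18 libraries (0.181%). For CONV-WT against COLONIZED-WT the reported 0 became 3 with library total (5.99%). For CONV-Ern2-/- against COLONIZED-Ern2-/- the reported 1 became 2 with TMM size factors (8.34%) and 0 with edgeR (0.282%), the Y-linked term (4.82%) and library total (2.06%). The cause of these shifts was not tested.

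With a replicate block, CONV-WT against GF-WT gave 8 called members (9.17%), COLONIZED-Ern2-/- against COLONIZED-WT gave 0 (1.58%) and CONV-Ern2-/- against GF-Ern2-/- gave 1 (3.87%), and the other counts stayed within 1.5 times. In no comparison did every same-numbered pair correlate above 0.1, so the numbers were not taken as pairs. In COLONIZED-Ern2-/- against GF-Ern2-/- every sample correlated best with its own number (0.43, 0.068 and 0.18), a hint from the data and not from the design.

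Leaving out 1 library at a time gave 5 to 19 called members for COLONIZED-WT and 1 to 23 for CONV-WT against GF-WT, 0 to 11 and 0 to 3 for COLONIZED-Ern2-/- and CONV-Ern2-/- against GF-Ern2-/-, 0 to 4, 0 to 0 and 0 to 1 for the genotype labels in CONV, GF and COLONIZED, 0 to 1 for CONV-WT against COLONIZED-WT, 0 to 8 for CONV-Ern2-/- against COLONIZED-Ern2-/-, and 0 to 0 for both interactions.

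Single genes whose log2 fold change turned sign were not called in the comparisons named here. With library total Myc turned to 0.11 (CONV genotype), 0.75 (CONV-WT against COLONIZED-WT), 0.20 (CONV-Ern2-/- against COLONIZED-Ern2-/-) and 0.13 (CONV-Ern2-/- against GF-Ern2-/-). With the Y-linked term it turned to 0.32 (GF genotype), -0.072 (CONV-WT against GF-WT) and 0.39 (CONV-Ern2-/- against GF-Ern2-/-). In that last comparison Myc was 0.0070 with edgeR, 0.0072 with the low-count filter, 0.047 with the replicate block and 0.0045 with all 18 libraries, and ran from -0.25 to 0.39 without 1 library. Without 1 library Myc also ran from -0.65 to 0.018 (GF genotype), -0.069 to 0.66 (CONV-WT against GF-WT), -0.070 to 0.55 (COLONIZED-Ern2-/- against GF-Ern2-/-), -0.60 to 0.11 (CONV-WT against COLONIZED-WT) and -0.31 to 0.091 (CONV-Ern2-/- against COLONIZED-Ern2-/-). In CONV-WT against GF-WT, Polr1b turned to -0.14 with the Y-linked term and Utp20 to 0.69 with library total, and without 1 library Polr1b ran from -0.14 to 0.51, Utp20 from -0.48 to 0.23 and Npm1 from -0.017 to 0.16. In COLONIZED-WT against GF-WT, Npm1 turned to 0.0012 with edgeR and 0.023 with the Y-linked term, and without 1 library Npm1 ran from -0.11 to 0.043 and Ubtf from -0.028 to 0.064. Rn45s in the CONV genotype comparison turned to 0.23 with the Y-linked term and ran from -0.42 to 0.049 without 1 library. Depth of 5865619 to 8198204 counts in the shallowest 3 libraries, all CONV, and 3 libraries a group limit the precision.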
